A study of Mus musculus with 6 samples.

Results

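The 10 genes Lpl, Gpihbp1, Angptl4, Cd36, Slc27a1, Fabp4, Fabp5, Vldlr, Lrp1 and Apoe encode proteins that bring fatty acids and lipoprotein remnants into fat cells or bind them there. They were taken by gene name from the deposited gene table of 13116 genes, and all 10 were listed and passed the filter on low values. The RNA came from epididymal fat, a visceral white fat depot, of 3 control mice (HuRflox/flox:AdipoQ-Cre-) and 3 HuRAKO mice, which carry the same floxed HuR alleles with AdipoQ-Cre. All 6 were C57BL/6 mice fed a high-fat diet (HFD) for 16 weeks from 8 weeks of age, and no chow-fed mouse is included. HuR, the product of Elavl1, is an RNA-binding protein that binds AU-rich elements in 3′-UTRs. The adiponectin promoter drives Cre in adipocytes, whereas whole epididymal fat also holds vessels, macrophages, progenitors and mesothelium, in which HuR is not deleted by this Cre. The question behind the comparison is what changes in fat when adipocytes lack HuR.

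Lipoprotein lipase (LPL) is made by adipocytes and carried by GPIHBP1 to the surface of capillary endothelium, where it splits the triglycerides of circulating lipoproteins. ANGPTL4 inactivates LPL. The freed fatty acids enter the adipocyte through CD36 and FATP1 (Slc27a1), and the cytosolic carriers FABP4 and FABP5 bind them inside the cell. VLDLR and LRP1 are receptors of one family that take up lipoproteins carrying the ligand apolipoprotein E (Apoe), which macrophages also make in large amounts.

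HuR binding is described for AU-rich sequence, so the pentamer ATTTA was searched, on the transcript strand only, in the 3′-UTR of the most abundant listed transcript of each gene (GENCODE M21, GRCm38). It occurred in 6 of the 10, against 66.7% of 12567 tested genes with an annotated 3′-UTR (median length 979 bases). Vldlr-207 held 12 copies in 5091 bases, Lpl-201 held 5 in 2428, Fabp5-201 held 2 in 487, Cd36-206 held 2 in 864, Fabp4-201 held 1 in 432 and Angptl4-201 held 1 in 1637. The short 3′-UTRs of Gpihbp1-201 (89 bases) and Apoe-209 (108 bases) held none, nor did those of Slc27a1-207 (646 bases) and Lrp1-201 (789 bases). The nonamer ATTTATTTA, which holds overlapping pentamers, occurred in Lpl only, against 5.63% of all tested genes. The sites of both FABP genes and the nonamer of Lpl are shown. The FABP genes differ in the results below, and the nonamer occurred only in Lpl among the 10. Each line gives 29 bases of the last exon in GRCm38, 5′ to 3′ on the gene's strand, with the motif in capitals.
Fabp5 first site: tagtgctaATTTAtgatatgtgtgtgggt
Fabp5 second site: gccccgtcATTTAagcttgccttaaatcg
Fabp4 site: tcagtcggATTTAttgtttttttttaaag
Lpl nonamer: agctttcaATTTATTTAttagctgtaaat
The Fabp5 sites lie at chr3:10016327-10016355 and chr3:10016494-10016522 on the plus strand, in exon 4 of 4. The Fabp4 site lies at chr3:10204443-10204471 on the minus strand, in exon 4 of 4, and the Lpl nonamer at chr8:68906671-68906699 on the plus strand, in exon 10 of 10. Such a match is a description of the sequence and was not measured as a binding site.

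The values are FPKM, fragments scaled by transcript length and by the fragments of the library, so levels are per length, and the sequencing depth of each mouse is unknown. Summed FPKM lay between 250270 and 264055 over the 6 mice. Control replicate 3 stood apart, at 48.3 on a first principal component that held 41.1% of the variance, while the other 5 mice lay between -14.5 and -3.09. Its adipocyte markers, including Adipoq and Plin1, summed to 5089 FPKM, the lowest of the 6 mice, and its macrophage markers, including Adgre1 and Cd68, to 3063 FPKM, the highest. HuR mRNA was not lower in the libraries labelled HuRAKO: Elavl1 was at 4.59 ± 0.576 FPKM in control and 5.18 ± 0.489 FPKM in HuRAKO mice (mean ± SD, n = 3 in each group here and below). For these libraries, the genotypes named below therefore rest on the labels. The study itself reported lower HuR mRNA by qPCR, and lower HuR protein, in adipose tissue of HuRAKO mice. In whole tissue, fewer cells of a type and less RNA per cell cannot be told apart.

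Of these 10 genes, Gpihbp1 and Fabp5 were higher in HuRAKO mice by the thresholds the study used (p below 0.05 without adjustment and a fold above 1.5), and 0 were lower. Of all 12847 tested genes 1.27% were higher and 1.35% lower by these thresholds, 2.62% in either direction. With Benjamini-Hochberg adjustment over all genes in limma, 0 of the 10 passed at 0.05, against 0.00778% of all genes, and 3 of the 10 (Gpihbp1, Fabp5 and Slc27a1) had an unadjusted p below 0.05, against 8.03%. With same-numbered mice as a replicate block, the 4 genes with an unadjusted p below 0.05 were Gpihbp1, Fabp5, Angptl4 and Apoe, and Slc27a1 was not among them. The share of all genes below that p was not counted for this fit. By the study's thresholds it called 384 of all genes, against 337 in the main fit. The groups did not overlap for Gpihbp1, Angptl4, Cd36 and Fabp5, which were higher in every HuRAKO mouse than in any control mouse, and for Slc27a1 and Apoe, which were lower. Among all genes 7.04% were without overlap and higher, and 7.68% without overlap and lower. The median log2 fold change of the 10 was 0.06, and that of all genes was -0.01. Without control replicate 3, neither Gpihbp1 nor Fabp5 passed the fold threshold and 0 of the 10 were called. Gpihbp1 and Fabp5 are also on the study's list of changed genes, which was chosen on these same mice.

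**Figure D1:**
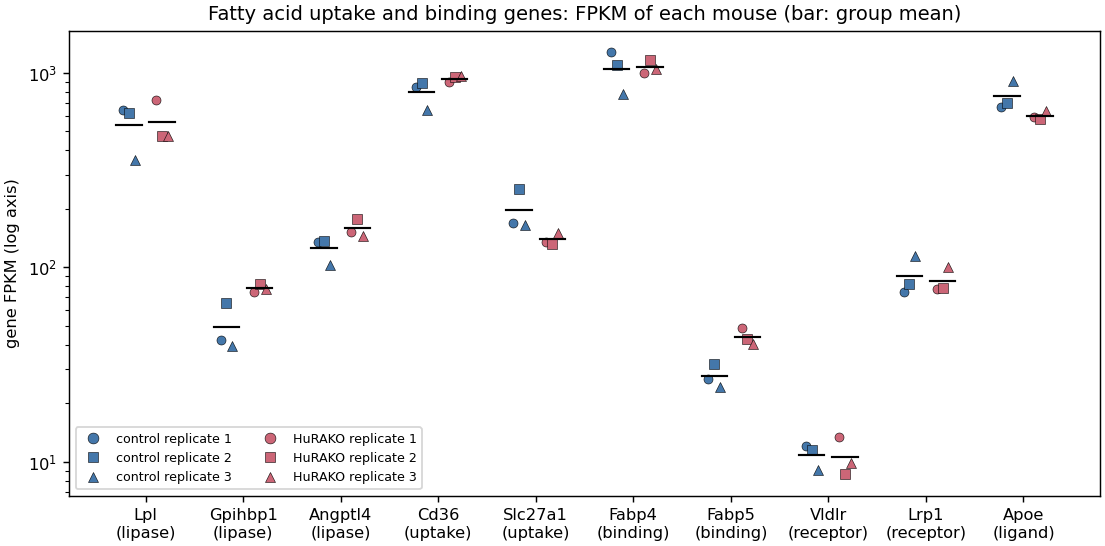
FPKM of each gene (log axis) in each of the 6 mice, by genotype, with the bar at the group mean and the marker shape giving the replicate number. Gpihbp1, Angptl4, Cd36 and Fabp5 lie higher in every HuRAKO mouse, Slc27a1 and Apoe lie lower, and control replicate 3 is the lowest of the 6 mice in 6 genes.

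Among the lipase genes, Lpl, which splits the triglycerides, overlapped between the genotypes. Lpl (chr8:68880491-68907448, plus strand) was measured at 644, 625 and 356 FPKM in control replicates 1 to 3 and at 727, 475 and 472 FPKM in HuRAKO replicates 1 to 3. The groups overlapped, with 542 ± 161 FPKM in control and 558 ± 146 FPKM in HuRAKO mice. Its log2 fold change was 0.06 with a standard error of 0.29 (adjusted p = 0.973, limma), and it was -0.22 without control replicate 3. Lpl had the largest coefficient of variation of the 10 genes in each group, 29.8% and 26.2%.

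Gpihbp1, the capillary anchor of the lipase, was higher in every HuRAKO mouse. Gpihbp1 (chr15:75596628-75599481, plus strand) was measured at 42.1, 65.7 and 39.5 FPKM in the control mice and at 74.4, 82.4 and 77.2 FPKM in the HuRAKO mice. Control replicate 2 lay closer to the HuRAKO mice than to the other controls. The means were 49.1 ± 14.4 and 78.0 ± 4.06 FPKM, a log2 fold change of 0.69 with a standard error of 0.20 (adjusted p = 0.482, limma). An exact permutation test gave a two-sided p of 0.1, the smallest that 3 mice against 3 allow. Angptl4, Cd36, Slc27a1, Fabp5 and Apoe, also without overlap, had the same value. Without control replicate 3 the log2 fold change was 0.56, below the fold threshold, with an unadjusted p still below 0.05. The spread among the HuRAKO mice (coefficient of variation 5.20%) was smaller than among the control mice (29.4%), which was not tested.

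GPIHBP1 is an endothelial protein, and endothelial markers were higher in the same mice. Of 13 endothelial markers 13 had a positive log2 fold change, with a median of 0.57 (0.44 without control replicate 3). By the study's thresholds 5 were higher with all mice, against 1.27% of all genes, and 4 without control replicate 3. Their summed level was 239 to 352 FPKM in control and 394 to 576 FPKM in HuRAKO mice. Pecam1, the first of the list, was measured at 32.5, 34.1 and 31.7 FPKM in control and 38.2, 58.0 and 38.8 FPKM in HuRAKO mice. It was short of the thresholds (log2 fold change 0.42). Kdr, a VEGF receptor, was measured at 24.1, 22.5 and 18.2 FPKM in control and 28.0, 40.3 and 41.8 FPKM in HuRAKO mice. Cdh5, the cadherin of endothelial junctions, was measured at 74.0, 66.3 and 49.1 FPKM in control and 88.1, 129 and 82.3 FPKM in HuRAKO mice. No marker of this list was at 0 in any mouse, and the part of the endothelial RNA in the difference of Gpihbp1 was not tested.

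Angptl4, the inhibitor of the lipase, did not pass the thresholds, and its gene values did not overlap between the groups. Angptl4 (chr17:33773750-33781575, minus strand) was measured at 135, 137 and 103 FPKM in the control mice and at 153, 178 and 145 FPKM in the HuRAKO mice. Control replicates 1 and 2 lay just below HuRAKO replicate 3, and control replicate 3 lay further down. The means were 125 ± 19.1 and 159 ± 17.3 FPKM, a log2 fold change of 0.35 with a standard error of 0.15 (adjusted p = 0.642, limma). Without control replicate 3 it was 0.21. Its only listed transcript, Angptl4-201, overlapped between the groups, at 80.6, 55.1 and 56.6 FPKM in control and 84.1, 105 and 56.2 FPKM in HuRAKO mice.

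Relative to Lpl, the partners did not separate the genotypes. Gpihbp1 stood at 6.53%, 10.5% and 11.1% of the Lpl FPKM in control and at 10.2%, 17.4% and 16.3% in HuRAKO mice. The groups overlapped through HuRAKO replicate 1, which had the highest Lpl. Angptl4 stood at 21.0%, 21.9% and 29.0% of Lpl in control and at 21.0%, 37.5% and 30.7% in HuRAKO mice, again with overlap.

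Neither uptake gene passed the thresholds, and in both the groups did not overlap. Cd36 (chr5:17781690-17888801, minus strand), the long-chain fatty acid translocase, was measured at 845, 887 and 647 FPKM in the control mice and at 896, 949 and 959 FPKM in the HuRAKO mice. The gap between control replicate 2 and HuRAKO replicate 1 was small beside the spread of the control mice. The means were 793 ± 128 and 935 ± 33.6 FPKM, a log2 fold change of 0.25 with a standard error of 0.14 (adjusted p = 0.738, limma), and 0.11 without control replicate 3.

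Slc27a1 encodes FATP1, a transport protein that also has acyl-CoA synthetase activity. Slc27a1 (chr8:71568882-71587302, plus strand) was measured at 170, 254 and 165 FPKM in the control mice and at 135, 132 and 150 FPKM in the HuRAKO mice. Control replicate 2 was far above the other controls, and the HuRAKO mice lay close together. The means were 196 ± 49.9 and 139 ± 9.85 FPKM, a log2 fold change of -0.47 with a standard error of 0.19 (adjusted p = 0.615, limma), short of the fold threshold. Without control replicate 2, the highest mouse, it was -0.27, and it was -0.58 without control replicate 3. Of 15 alternatives, only the one that weighted mice by how closely they followed the fit took it past the thresholds (-0.59).

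Slc27a1 as a share of Cd36 did not overlap between the groups. This follows from the gene values, with Slc27a1 lower and Cd36 higher in every HuRAKO mouse than in any control mouse. Slc27a1 stood at 20.1%, 28.6% and 25.6% of the Cd36 FPKM in control and at 15.1%, 13.9% and 15.7% in HuRAKO mice. The lowest control mouse lay above the highest HuRAKO mouse, and control replicate 3 lay between the other controls. This share was computed after both genes had been seen and was not tested.

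The fatty acid-binding proteins differed from each other. Fabp4, the main carrier of adipocytes, was the most abundant of the 10 genes and overlapped between the genotypes, whereas Fabp5, a minor carrier that macrophages and endothelium also make, was higher in every HuRAKO mouse. Fabp4 (chr3:10204088-10208576, minus strand) was measured at 1274, 1092 and 780 FPKM in the control mice and at 993, 1168 and 1049 FPKM in the HuRAKO mice. All HuRAKO mice lay within the control range, with means of 1049 ± 250 and 1070 ± 89.4 FPKM and a log2 fold change of 0.05 with a standard error of 0.19 (adjusted p = 0.962, limma). Without control replicate 3 it was -0.14.

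Fabp5 had the smallest p of the 10 genes. Fabp5 (chr3:10012548-10016607, plus strand), which lies near Fabp4 on the opposite strand, was measured at 26.7, 31.7 and 24.1 FPKM in the control mice and at 48.8, 42.6 and 40.5 FPKM in the HuRAKO mice. The gap between the groups was wider than the range of either. The means were 27.5 ± 3.86 and 44.0 ± 4.34 FPKM, a log2 fold change of 0.66 with a standard error of 0.14 (adjusted p = 0.386, limma). An exact permutation test gave the smallest two-sided p possible, 0.1, as for each of the 10 genes without overlap. Without control replicate 3 the log2 fold change was 0.57, just short of the fold threshold, with an unadjusted p still below 0.05. As a share of the Fabp4 FPKM, Fabp5 stood at 2.10%, 2.91% and 3.10% in control and at 4.92%, 3.65% and 3.86% in HuRAKO mice, without overlap.

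Markers of lipid-associated macrophages, cells that gather around dying adipocytes in obesity, were higher in HuRAKO replicates 1 and 3, while HuRAKO replicate 2 summed to the level of control replicate 3. Of 11 tested markers 11 had a positive log2 fold change, with a median of 0.77 (1.04 without control replicate 3). By the study's thresholds 4 were higher with all mice, against 1.27% of all genes, and 7 without control replicate 3. Their summed level was 240 to 275 FPKM in control and 274 to 573 FPKM in HuRAKO mice. Trem2, the first of the list, was measured at 2.26, 2.25 and 6.84 FPKM in control and 9.62, 2.95 and 10.5 FPKM in HuRAKO mice. Its groups overlapped and it was not called. Gpnmb, a membrane glycoprotein of these cells, was measured at 6.28, 8.91 and 9.98 FPKM in control and 44.5, 14.6 and 88.2 FPKM in HuRAKO mice. HuRAKO replicate 2 was the lowest of its group for Gpnmb but lay between the others for Fabp5. The part of these cells, or of the endothelium described above, in the level of Fabp5 was not tested.

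**Figure D2:**
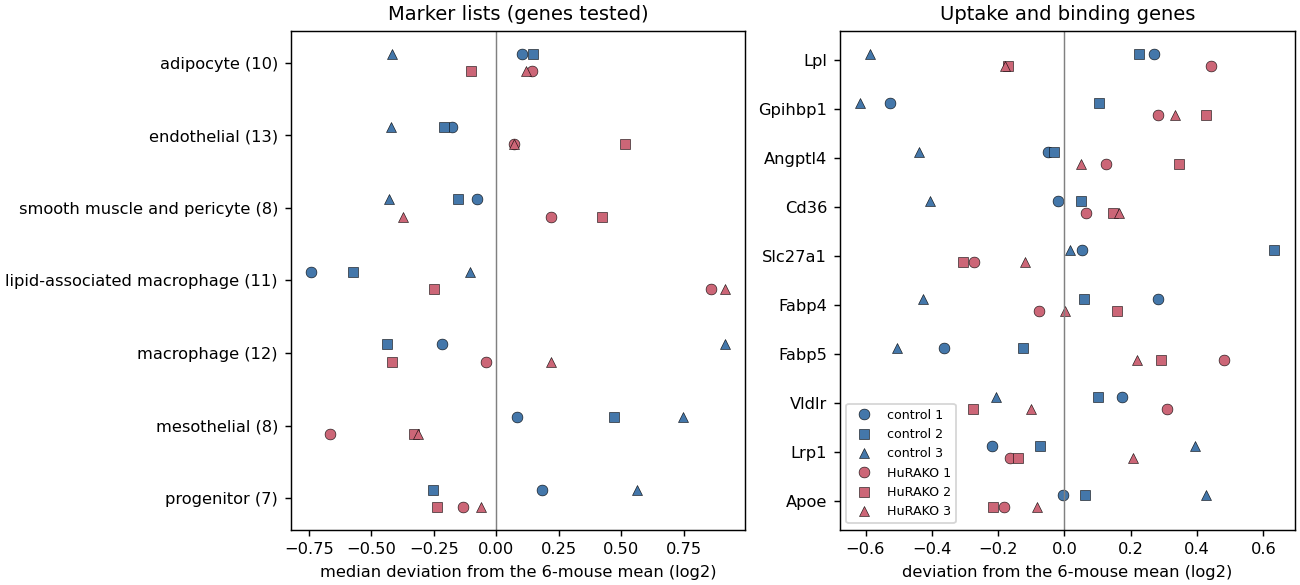
Left, median deviation of each marker list from the mean of the 6 mice (log2, genes tested in parentheses), and right, deviation of each of the 10 genes on the same scale, one point per mouse. Endothelial markers and Gpihbp1, Angptl4, Cd36 and Fabp5 are higher in each HuRAKO mouse, while control replicate 3 is lowest for adipocyte markers and highest for macrophage markers, Lrp1 and Apoe.

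The receptors showed no difference between the genotypes beyond the spread of the mice. Vldlr (chr19:27216484-27254231, plus strand), the receptor for triglyceride-rich lipoproteins, was measured at 12.1, 11.5 and 9.08 FPKM in control and 13.4, 8.61 and 9.83 FPKM in HuRAKO mice. The means were 10.9 ± 1.60 and 10.6 ± 2.49 FPKM, a log2 fold change of -0.05 with a standard error of 0.19 (adjusted p = 0.967, limma). Vldlr was the only one of the 10 with a larger coefficient of variation in HuRAKO (23.5%) than in control mice (14.7%).

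Lrp1, a large receptor that takes up remnants and many other ligands, was highest in replicate 3 of each group. Lrp1 (chr10:127538161-127621148, minus strand) was measured at 74.4, 82.3 and 114 FPKM in control and 77.3, 78.6 and 100.1 FPKM in HuRAKO mice. The means were 90.3 ± 21.0 and 85.3 ± 12.8 FPKM, a log2 fold change of -0.07 with a standard error of 0.19 (adjusted p = 0.950, limma). It was 0.11 without control replicate 3. Vldlr stood at 7.95% to 16.3% of the Lrp1 FPKM in control and at 9.82% to 17.3% in HuRAKO mice.

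Apoe, the ligand of these receptors, was lower in every HuRAKO mouse than in any control mouse. Apoe (chr7:19696109-19699188, minus strand) was measured at 670, 702 and 904 FPKM in the control mice and at 592, 579 and 634 FPKM in the HuRAKO mice. Control replicate 3 was the highest, and the other controls lay just above HuRAKO replicate 3. The means were 759 ± 127 and 602 ± 29.0 FPKM, a log2 fold change of -0.32 with a standard error of 0.14 (adjusted p = 0.636, limma). It was -0.19 without control replicate 3.

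General macrophage markers were highest in control replicate 3, as Apoe was. Of 12 markers 3 had a positive and 9 a negative log2 fold change, and 0 passed the study's thresholds in either direction. Without control replicate 3, 1 was higher by these thresholds. The median log2 fold change of these markers was -0.21 and turned to 0.25 without that mouse. Their summed level was 1044 to 3063 FPKM in control and 1145 to 1816 FPKM in HuRAKO mice. Adgre1, which encodes the macrophage antigen F4/80, was measured at 18.9, 14.2 and 60.9 FPKM in control and 36.1, 22.3 and 46.4 FPKM in HuRAKO mice. It was among the 3 with a positive log2 fold change (0.38), as was Cd68 (0.36), whereas Csf1r was among the 9 with a negative one (-0.22). The part of macrophages in the level of Apoe was not tested. Mesothelial markers, including Upk3b and Krt19, were lower in HuRAKO mice, 7 of 8 by the study's thresholds, against 1.35% of all genes. Their sums were 186 to 295 FPKM in control and 101 to 144 FPKM in HuRAKO mice. The mesothelial marker not called was Msln, the first of the list, whose groups overlapped. Of 8 smooth muscle and pericyte markers 3 were higher and 0 lower (median log2 fold change 0.33), against 1.27% and 1.35% of all genes. Of 7 progenitor markers 0 were called (median -0.33, and -0.052 without control replicate 3). Of 5 tested lymphocyte markers 0 were called (median -0.06, and 0.16 without control replicate 3).

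Adipocyte markers gave no count of that kind. Of 10 tested, 1 was higher and 0 lower by the study's thresholds, against 1.27% and 1.35% of all genes. Without control replicate 3, 1 was higher and 1 lower. The median log2 fold change of these markers was 0.07 and turned to -0.13 without that mouse. Their summed level was 5089 to 8078 FPKM in control and 6581 to 7748 FPKM in HuRAKO mice. Adipoq was measured at 1631, 1582 and 1286 FPKM in control and 1613, 1325 and 1625 FPKM in HuRAKO mice. Control replicate 3 was the lowest for Adipoq, as it was for Lpl, Gpihbp1, Angptl4, Cd36, Fabp4 and Fabp5.

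**Figure D3:**
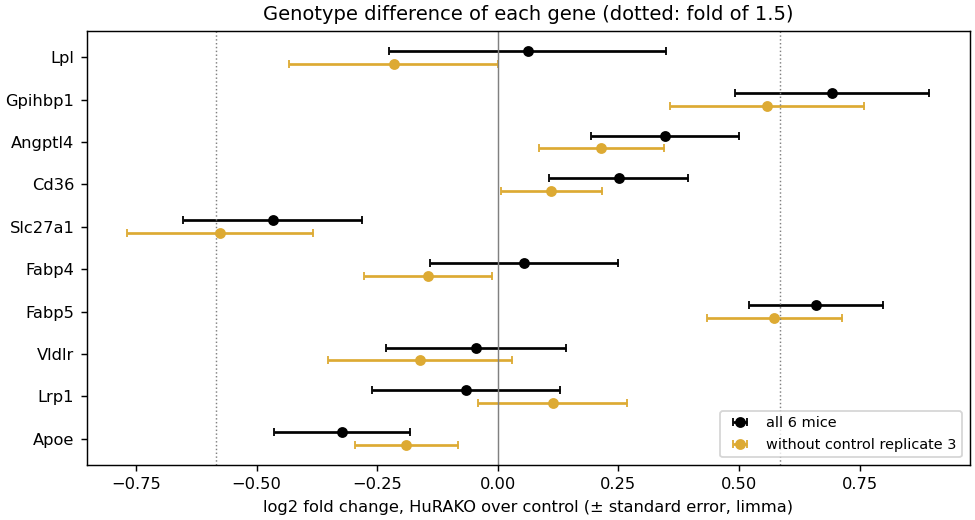
Log2 fold change of each gene, HuRAKO over control, with its standard error from limma, for all 6 mice (black) and without control replicate 3 (yellow). Dotted lines mark a fold of 1.5. Gpihbp1 and Fabp5 fall from 0.69 and 0.66 to 0.56 and 0.57, and Lpl, Fabp4 and Lrp1 change sign.

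In level, the 10 genes spanned a wide range of the transcriptome. By mean gene FPKM over the 6 mice the order was Fabp4 (1059), Cd36 (864), Apoe (680), Lpl (550), Slc27a1 (168), Angptl4 (142), Lrp1 (87.8), Gpihbp1 (63.6), Fabp5 (35.8) and Vldlr (10.8). Fabp4 ranked 20 and Vldlr 4105 among the 12847 tested genes. Of the 9 neighbouring steps in this order, only Lpl over Slc27a1 (3.28-fold) and Fabp5 over Vldlr (3.33-fold) had ranges that did not overlap over all mice. The other 7 steps did not exceed the spread between mice, although Fabp4 lay above Cd36 and Gpihbp1 above Fabp5 within each of the 6 mice.

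The order depended on which deposited table was read. The gene value was only 0.22 to 0.24 of the summed FPKM of the listed transcripts for Fabp4, 0.30 to 0.33 for Fabp5 and 0.41 to 0.42 for Lpl, but 1.68 to 2.58 for Angptl4. In transcript sums Lpl (1323) thus lay above Apoe (1239) and Cd36 (1113), Fabp5 (114) above Gpihbp1 (111), and Angptl4 (72.9) below Lrp1 (103). Within each of Fabp4, Fabp5 and Lpl the ratio of the tables varied little between mice, so the genotype comparison of these genes was nearly the same in both.

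The transcript table listed 32 transcripts of the 10 genes, of which 31 passed the filter on low values. By the study's thresholds 3 were higher (Gpihbp1-201, Gpihbp1-203 and Fabp5-201) and 1 was lower (Slc27a1-201), against 4.59% of 23233 tested transcripts in either direction. With adjustment in limma 0 passed (smallest adjusted p = 0.588), against 0.0603% of all, and 7 had an unadjusted p below 0.05, against 6.52% of all. Fabp5-201 was measured at 85.1, 102 and 75.2 FPKM in control and 161, 129 and 134 FPKM in HuRAKO mice. Gpihbp1-201, the main transcript of its gene, was measured at 51.3, 89.9 and 53.4 FPKM in control and 103, 118 and 104 FPKM in HuRAKO mice. In both transcripts, as in the gene values, every HuRAKO mouse lay above every control mouse.

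Cd36 and Slc27a1 had several listed transcripts. Cd36-204 was measured at 243, 262 and 186 FPKM in control and 300, 327 and 311 FPKM in HuRAKO mice, without overlap, with a log2 fold change of 0.45 (adjusted p = 0.757, limma). Cd36-202 was at 288 FPKM in control and 289 FPKM in HuRAKO mice, with a log2 fold change of 0.02. The difference between the transcripts was not tested. Slc27a1-207, which held most of the FPKM of Slc27a1, was measured at 297, 423 and 278 FPKM in control and 219, 213 and 247 FPKM in HuRAKO mice, without overlap. All 4 of its listed transcripts had a negative log2 fold change.

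Among the Apoe transcripts, Apoe-209 and Apoe-205 traded places between mice, and not by genotype. Apoe-209 was measured at 308, 303 and 1253 FPKM in control and 788, 184 and 859 FPKM in HuRAKO mice. Apoe-205 was measured at 470, 527 and 23.5 FPKM in control and 41.2, 479 and 36.8 FPKM in HuRAKO mice. Each of the 6 mice that was high in the former was low in the latter, and each genotype held mice of either kind. Apoe-206 was measured at 296, 303 and 302 FPKM in control and 200, 261 and 210 FPKM in HuRAKO mice, without overlap (log2 fold change -0.43, adjusted p = 0.757, limma). Its share of the Apoe transcripts was 17.9%, 18.2% and 17.9% in control replicate 3 and HuRAKO replicates 1 and 3, where Apoe-209 was high, and 24.3% to 25.3% in the other mice. Transcripts of Apoe overlap along the gene, and the sources used here do not say how reads were divided between them.

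**Figure D4:**
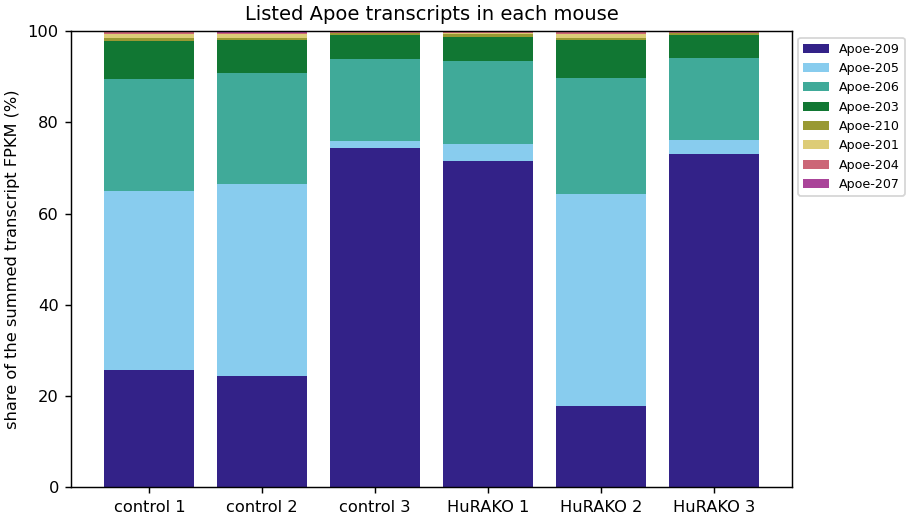
Share of each listed Apoe transcript in the summed FPKM of the Apoe transcripts (%), one bar per mouse. Apoe-209 takes 74.5%, 71.5% and 73.1% in control 3, HuRAKO 1 and HuRAKO 3, and 17.8% to 25.7% in the other mice, where Apoe-205 takes 39.2% to 46.5%.

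Around these 10 genes, a list of 77 other genes of lipase handling, fatty acid transport and activation, fatty acid binding, lipoprotein receptors and their transcription regulators was compared, of which 61 were listed and 60 tested. By the study's thresholds 5 were higher and 3 lower, against 1.27% and 1.35% of all genes. The 5 include Fabp7, which passed the filter on low values only through the HuRAKO mice. With a filter at a mean of 1 FPKM, 7 genes were called in either direction. With adjustment in limma 0 of the 60 passed, against 0.00778% of all genes, and 11 had an unadjusted p below 0.05, against 8.03%. The median log2 fold change of the 60 was -0.01. Without control replicate 3, 7 were called, of which 5 (Fabp7, Hspg2, Sdc1, Apoc1 and Fabp3) were also called with all mice.

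Of 14 genes of lipase handling, 2 were higher and 1 lower. The heparan sulfate proteoglycan Hspg2 (perlecan) was measured at 83.2, 63.9 and 56.6 FPKM in control and 124, 104 and 109 FPKM in HuRAKO mice (log2 fold change 0.73, adjusted p = 0.398, limma). Sdc1 (syndecan-1), a cell surface proteoglycan, was at 5.68 ± 1.25 and 10.4 ± 2.96 FPKM. Apoc1, an apolipoprotein that inhibits the lipase, was measured at 77.4, 79.3 and 78.9 FPKM in control and 48.3, 55.5 and 38.1 FPKM in HuRAKO mice (log2 fold change -0.74, adjusted p = 0.378, limma), and it was -0.73 without control replicate 3. Apoc1, a neighbour of Apoe in one cluster on chromosome 7, was thus lower with the same sign as Apoe.

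In the other groups few genes were called. Of 11 genes of transport and activation, Cav2 (caveolin-2) was higher, at 111 ± 32.8 and 172 ± 35.5 FPKM, and was not called without control replicate 3. Of 5 other fatty acid-binding genes, Fabp7, known from brain, was higher but at a low level, at 0.147, 0.0578 and 0.385 FPKM in control and 1.06, 0.994 and 1.22 FPKM in HuRAKO mice. Fabp3, the heart form, was lower, at 2.09 ± 1.01 and 0.533 ± 0.282 FPKM. Fabp7 passed the filter on low values only through the HuRAKO mice, so its call supports nothing beyond these values.

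Of 16 receptor genes, 0 were higher and 1 was lower, the endocytic receptor Lrp2 (megalin), measured at 2.14, 5.22 and 7.06 FPKM in control and 1.51, 1.38 and 2.28 FPKM in HuRAKO mice, with overlap. It was not called without control replicate 3. Mylip, a ubiquitin ligase that marks lipoprotein receptors for degradation, was at 26.2 ± 3.60 and 35.5 ± 0.671 FPKM. It was short of the fold threshold (log2 fold change 0.43, adjusted p = 0.468, limma). Of 14 transcription regulators, Meox2, a homeobox factor of heart endothelium, was higher, at 9.06 ± 1.48 and 14.5 ± 2.71 FPKM, and fell short of the fold threshold without control replicate 3 (log2 fold change 0.50).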

How the data were processed

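RNA-seq of epididymal fat from 3 control and 3 HuRAKO mice was used. Of each mouse, the authors deposited a gene table and a transcript table in FPKM, and the submitters' processing notes name Bowtie 0.12.2 and GRCm38. The program that made the FPKM values is not given in the sources used here, and the library kit differs between methods and labels. All 6 value columns of each table were used and 0 left out, and 1 empty line per table is not analysed here. The depth is unknown, so precision comes from the spread between mice, which the labels do not describe further.

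Values were taken as log2(FPKM + 1). Fold changes are on this scale, which understates changes of low genes. The 12847 genes and 23233 transcripts whose mean reached 0.5 FPKM were tested with limma 3.58.1 in R 4.3.3, two-sided, with Benjamini-Hochberg adjustment over all of them. The study's thresholds were applied to the same fit. The method was tested on simulated data. The 10 genes, the lists and the tests were chosen with earlier results of these data known. Named genes were the 10, of the related list all past the study's thresholds and the 4 with the smallest p in each direction, up to 3 markers per cell type in list order, and the 4 genes most alike to Fabp5 and Fabp4. Of these, 2 are not reported here.

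Mice are numbered 1 to 3 within each genotype, with no statement in the labels of what a number marks. Same-numbered mice deviated together from their group means (r = 0.101, 0.175 and 0.22 over genes), so they were paired in an alternative fit. The main fit and the permutation tests used genotype only and no pairs. Control replicate 1 went as closely with HuRAKO replicate 2 (r = 0.106). Alternatives were another pseudocount, other variance models, scalings and filters, a fit with the replicate block and the removal of each mouse. Marker and pathway lists without control replicate 3 were added after the data were seen. 3′-UTRs came from GENCODE M21. Of the loci, that of Angptl4 ends elsewhere in that annotation than in the deposited table, and the other 9 are equal. Tables were handled in pandas 2.3.3 and numpy 2.4.6 under Python 3.11.15, with permutation tests by full enumeration of the group labels, and figures were drawn in matplotlib 3.10.9.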

Additional observations from a re-analysis of the deposited data

How the results depend on the processing

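Over 15 alternatives, the direction of Gpihbp1, Angptl4, Cd36, Slc27a1, Fabp5 and Apoe did not change, and 0 of the 10 genes passed an adjusted p of 0.05 in limma in any. The remaining genes were near 0 and turned sign in some. With mice weighted by how closely they followed the fit, Lpl was at -0.13, Fabp4 at -0.052 and Lrp1 at 0.045 (log2 fold change). With these weights 1 of the 10 genes passed the study's thresholds instead of 2. That gene was Slc27a1 (-0.59), while Gpihbp1 (0.55) and Fabp5 (0.58) fell short of the fold threshold. Leaving out each mouse gave -0.22 to 0.21 for Lpl, -0.14 to 0.21 for Fabp4, -0.21 to 0.080 for Vldlr and -0.19 to 0.11 for Lrp1, and 0 to 2 of the 10 genes were called, with 0 without control replicate 3 and 1 without HuRAKO replicate 1. Marker medians that turned sign without control replicate 3 were those of adipocytes (-0.13), macrophages (0.25) and lymphocytes (from -0.06 to 0.16). Genes called by the study's thresholds numbered 337, and 563 with a pseudocount of 0.1, 213 without moderation of variances and 370 to 518 when a mouse was left out. Genes at an adjusted p below 0.05 numbered 1, and 0 with a pseudocount of 0.1, without moderation and with the replicate block, 3 with a common sum and with weights, and 0 to 3 when a mouse was left out. Of the related genes 8 were called, and 5 without moderation. With the replicate block, 2 of the 10 genes were called as before (Fabp5 0.66 and Gpihbp1 0.69, adjusted p = 0.416 for each). Depth is unknown, and 3 mice per group limit every comparison. The causes of these changes were not tested.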

Other observations

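Among the genes whose log2 level over the 6 mice was most alike to that of Fabp5 were Timp4, an inhibitor of metalloproteinases (Pearson r = 0.994), Ankrd29 (0.983) and Tmsb15l (0.983). Timp4 was measured at 27.7, 36.6 and 26.5 FPKM in control and 64.3, 56.0 and 48.1 FPKM in HuRAKO mice, in the same order of mice as Fabp5. Of all tested genes, 52 had an r above 0.95 with Fabp5. For Fabp4 they were the polarity gene Scrib (0.989), Tmem246 (0.988), the proton pump gene Atp6v0e2 (0.984) and the matrix gene Ltbp4 (0.980), and 32 genes had an r above 0.95. These values describe 6 mice that share their genotype contrast and, for control replicate 3, its distance from the others. No test was made.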
